A study of Mus musculus with 60 samples.

Results

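The nuclear genome encodes most subunits of the mitochondrial respiratory chain and of ATP synthase, and their transcripts were followed through 60 RNA-seq libraries of mouse medial prefrontal cortex (mPFC). A gene was a member when the deposited table typed it as protein coding and its symbol began with Nduf followed by a, b, c, s or v and a digit, was Sdha, Sdhb, Sdhc or Sdhd, or began with Uqcr, with Cox and a digit of the cytochrome oxidase subunits, or with Atp5. This gave 88 members of 55414 genes, of which 21884 were protein coding. Complex I had 7 core and 29 accessory members, complex II had 4, complex III had 8, complex IV had 12 general subunits and 8 tissue isoforms, and ATP synthase (complex V) had 18. The remaining 2, Cox5b-ps and Ndufb11b, are copies of other subunit genes, and reads shared with their parent genes are uncertain. Cox8c, Ndufb11b and the second of 2 genes named Atp5o had no counts in any library, so 85 members were detected.

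The mice were DBA2/J, an inbred strain, and per the series title they expressed GFP-L10a, in which green fluorescent protein is fused to a protein of the large ribosomal subunit. IP libraries, per the labels, hold RNA pulled down with an anti-GFP antibody from cells named aPVT projector, that is, mPFC cells that project to the aPVT, and Input libraries hold RNA of bulk mPFC with no antibody. Each fraction had 4 subtypes, SA, SA:ANH, ANH and RES, and an NS group, with 6 libraries in each of the 10 combinations. The labels do not spell these names out. The study design includes social defeat, repeated attack by an aggressor mouse, over 5 days, without saying which groups went through it. The labels give no age, no promoter or driver of the tag, and do not say whether each library is a different animal, so p-values reflect variation among these libraries, part of which may be technical. In bulk RNA, fewer cells of a type and less RNA per cell cannot be told apart.

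Complex I (NADH dehydrogenase) and complex II (succinate dehydrogenase) pass electrons through complex III (cytochrome bc1) to complex IV (cytochrome c oxidase), and ATP synthase uses the proton gradient that complexes I, III and IV build. Some subunits hold the redox centres or catalytic sites, and many small accessory subunits surround them. Neurons depend heavily on this chain to fuel ion pumping and synaptic transmission. The nuclear subunits are translated by cytosolic ribosomes, so their transcripts can be caught on the tagged ribosomes, whereas the subunits encoded in mitochondrial DNA are translated inside the organelle.

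Library totals lay between 19078906 and 27073413 counts. Levels are CPM, counts scaled to a common library size with TMM factors, and a gene passed when edgeR's quasi-likelihood test gave a Benjamini-Hochberg adjusted p under 0.05 over all genes tested. In IP against Input, 8 of 10 excitatory neuron markers were higher, and all 10 interneuron, 10 oligodendrocyte, 10 astrocyte, 10 microglial, and 10 endothelial and mural markers were lower. These marker lists also moved between IP groups: the summed oligodendrocyte markers were 214 to 236 CPM in SA, 149 to 182 in SA:ANH, 694 to 728 in ANH and 1021 to 1137 in RES, against 255 to 305 CPM in NS, with none of the 10 genes at 0 in any group. The summed layer 5 extratelencephalic neuron markers were 1709 to 1876 CPM in SA, 1028 to 1112 in SA:ANH, 1229 to 1294 in ANH and 1411 to 1507 in RES, against 1580 to 1727 CPM in NS IP, and none of these 10 genes was at 0. Summed levels in SA IP also lay wholly below NS IP for 10 excitatory neuron markers (4357 to 4963 CPM in SA, 5440 to 6013 in NS), 10 interneuron markers (98.5 to 119.5 CPM in SA, 135.5 to 164 in NS) and 10 astrocyte markers (193 to 233.5 CPM in SA, 256 to 280.3 in NS), with none of these genes at 0 in either group. In SA:ANH IP those 3 sums overlapped NS, at 5154 to 5690, 147 to 158 and 235 to 315 CPM. The interneuron sum lay wholly above NS in ANH (172.8 to 186.8 CPM) and RES (183.1 to 210.5 CPM). The excitatory sum lay wholly below NS in RES (5022 to 5293 CPM) and overlapped it in ANH (5162 to 5983 CPM). The astrocyte sum overlapped NS in both ANH (237.7 to 288.1 CPM) and RES (252.9 to 282.8 CPM). The part of these cell type differences in the results on subunits was not tested.

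Positions of the members the results turn on are those of the deposited table. The submitters' processing notes name mm10, but these positions do not match that build, and the build they belong to is unknown. Ndufs1 (ENSMUSG00000025968.17) is on the minus strand of chromosome 1 from 63182755 to 63215992, and Ndufb1 (ENSMUSG00000113902.2) on the minus strand of chromosome 12 from 101934349 to 101943327. Sdha (ENSMUSG00000021577.15) and Cox7c (ENSMUSG00000017778.15) are on the minus strand of chromosome 13, from 74470373 to 74498399 and from 86192935 to 86195023. Uqcrc1 (ENSMUSG00000025651.15) is on the plus strand of chromosome 9 from 108765701 to 108778691, and Atp5b (ENSMUSG00000025393.13) on the plus strand of chromosome 10 from 127919142 to 127926260. Values are summed over each gene, and whether counting used strand is not given, so overlapping genes cannot be told apart.

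Of the members' symbols, 69 were found in a RefSeq table of promoters (GRCm38.p6, 250 bases before to 50 after the start). The motif of the transcription factor NRF1, a regulator of respiratory chain genes, was searched as GCGCA and GCGC parted by any 1 base, on both strands. It stood in promoters of 17 members (24.6%), against 5.19% of all 27025 genes with a promoter in that table, whether or not detected here. The ETS motif CCGGAAG or CTTCCGG, bound by NRF2 (GABP), also stood in 17 (24.6%), against 9.93% of those genes. The YY1 motif AAGATGGC or GCCATCTT stood in 10 (14.5%), against 3.19%. The promoters of 3 members are shown because they hold the NRF1 motif in different numbers, in subunits of 3 complexes. Ndufs5 encodes an accessory subunit of complex I, Cox6a1 the general form of a nuclear subunit of complex IV, and Sdha the flavoprotein of complex II. Each is given 5′ to 3′ for the 250 bases before the start, on the minus strand of GRCm38.p6, at chr4:123718187-123718436 for Ndufs5, chr5:115348959-115349208 for Cox6a1 and chr13:74350241-74350490 for Sdha. Capitals mark NRF1 motifs in all 3, and in Cox6a1 also the ETS motif, which is the last capital run.
Ndufs5: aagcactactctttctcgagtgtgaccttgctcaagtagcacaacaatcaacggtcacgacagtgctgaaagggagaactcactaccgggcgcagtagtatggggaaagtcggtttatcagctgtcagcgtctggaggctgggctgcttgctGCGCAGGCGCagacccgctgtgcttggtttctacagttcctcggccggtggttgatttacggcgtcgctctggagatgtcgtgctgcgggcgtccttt
Cox6a1: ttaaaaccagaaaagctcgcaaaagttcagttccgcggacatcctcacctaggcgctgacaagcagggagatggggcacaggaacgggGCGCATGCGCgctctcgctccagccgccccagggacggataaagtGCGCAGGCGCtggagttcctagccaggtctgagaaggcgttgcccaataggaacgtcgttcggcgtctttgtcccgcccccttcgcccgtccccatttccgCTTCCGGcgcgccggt
Sdha: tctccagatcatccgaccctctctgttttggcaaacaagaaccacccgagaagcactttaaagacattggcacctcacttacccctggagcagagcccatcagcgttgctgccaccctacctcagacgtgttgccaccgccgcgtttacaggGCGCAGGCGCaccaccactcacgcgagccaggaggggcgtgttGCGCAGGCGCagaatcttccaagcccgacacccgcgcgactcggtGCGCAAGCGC
A motif match is a description of the letters and not a binding site. Calls in IP were also counted by motif, without a test between the classes. Of all genes tested in IP, 9.39% were higher and 7.2% lower in SA against NS, and 11.3% and 8.45% in SA:ANH against NS. In SA against NS, 12 of 17 tested members with the NRF1 motif and 44 of 50 without it were higher. In SA:ANH against NS, 14 of 17 with it were higher and 2 lower, and 44 of 50 without it were higher and 1 lower. For the ETS motif, 16 of 17 with it and 40 of 50 without it were higher in SA. In SA:ANH 16 of 17 with it were higher and 0 lower, against 42 higher and 3 lower of 50 without it. For the YY1 motif, 9 of 10 with it and 47 of 57 without it were higher in SA. In SA:ANH 9 of 10 with it were higher and 0 lower, against 49 higher and 3 lower of 57 without it. In ANH against NS, where 4.37% of all genes were lower, 2 of 17 members with the NRF1 motif and 18 of 50 without it were lower. For the ETS motif these were 4 of 17 and 16 of 50, and for the YY1 motif 1 of 10 and 19 of 57. In ANH 0 of these members were higher, and in RES 0 passed in either direction.

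In IP all 77 general subunits had log2 fold changes between -0.57 and 0.56 against bulk cortex, and the tissue isoforms were lower. Of 85 members tested in IP against Input over all 60 libraries, 50 were higher in IP, 25 were lower and 10 did not pass, where 32.8% of all genes tested were higher and 42.6% lower. The median log2 fold change was 0.11 over the members and -0.08 over all genes tested. In complex IV 10 of 12 general subunits were higher and 1 lower. In complex II Sdha (-0.15), Sdhc (-0.07) and Sdhd (-0.07) were lower and Sdhb did not pass (0.03, adjusted p = 0.0532).

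Among complex III subunits, Uqcr11, a small accessory subunit, had the largest rise. Its level was 391 to 707 CPM in the 30 IP libraries (median 485), against 268 to 387 CPM in the 30 Input libraries (median 329). The fractions did not overlap, and the log2 fold change was 0.56 ± 0.03 (SE). Atp5d, the delta subunit of ATP synthase, had 659 to 837 CPM in IP (median 744), against 520 to 609 CPM in Input (median 556), again without overlap (log2 fold change 0.42). Atp5g2, 1 of 3 genes for subunit c of the proton-carrying ring, was also higher (0.42), as were Atp5g1 (0.35) and Atp5g3 (0.16). The largest fall of an abundant member was that of Ndufb9, an accessory subunit of complex I, at 272 to 455 CPM in IP (median 319), against 445 to 554 CPM in Input (median 488). These ranges met at their edges, and the log2 fold change was -0.57 ± 0.02. Uqcrc1, a core protein of complex III, was lower by a log2 fold change of -0.19, and Uqcrfs1, the Rieske iron-sulphur protein, by -0.17. Atp5b, the catalytic beta subunit, averaged 2459 CPM in IP and 2789 CPM in Input (log2 fold change -0.18), while its partner Atp5a1 did not pass (-0.01).

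All 7 tested tissue isoforms of complex IV subunits were lower in IP. Cox4i2, Cox6b2, Cox8b and Ndufa4l2 did not pass the filter on low counts in IP alone. They entered this fit through the Input libraries, so lower in IP was the only call open to them. Cox6a2, the heart and skeletal muscle form of COX6A, which cortical interneurons also express, averaged 0.303 CPM in IP, with 2 of 30 libraries at 0, and 9.48 CPM in Input. Cox4i2, a form known for oxygen sensing in lung and pericytes, totalled 18 counts in IP, with 25 of 30 libraries at 0, and 1109 counts in Input. Ndufa4l2, a hypoxia-induced relative of Ndufa4 that mural cells express, averaged 0.204 CPM in IP and 2.73 CPM in Input. These 3 isoforms and Cox6b2, a testis form (0.111 CPM in IP, 2.44 CPM in Input), did not overlap between fractions. The share of all genes without overlap between the fractions was not counted. Their log2 fold changes were -4.98 for Cox6a2, -6.47 for Cox4i2, -3.78 for Ndufa4l2 and -4.51 for Cox6b2. All 10 interneuron markers (median log2 fold change -3.85) and all 10 endothelial and mural markers (-5.48) moved with them, and the part of those cells in the isoforms was not tested. Cox8b (-5.12) and Cox7a1 (-1.38), both muscle forms, rested in part on the NS Input libraries described further on. Cox7b2 differed least (-0.46, adjusted p = 0.0208) and lost its call with no filter on low counts (-0.44). Of the 13 protein genes in mitochondrial DNA, all were lower in IP, at a median log2 fold change of -5.05.

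The summed level of all members separated the IP groups and varied less between Input groups. It was 30786 to 32581 CPM in SA IP (mean 31746 ± 740 SD, n = 6), 31445 to 35668 in SA:ANH IP (32690 ± 1606), 24213 to 26138 in ANH IP (25070 ± 688) and 25736 to 29168 in RES IP (27905 ± 1316), against 25177 to 29042 CPM in NS IP (27629 ± 1434). SA and SA:ANH lay wholly above NS, ANH overlapped NS at its upper end, and RES covered about the range of NS. In Input the lowest library of any group was at 26839 CPM and the highest at 30968 CPM.

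**Figure D1:**
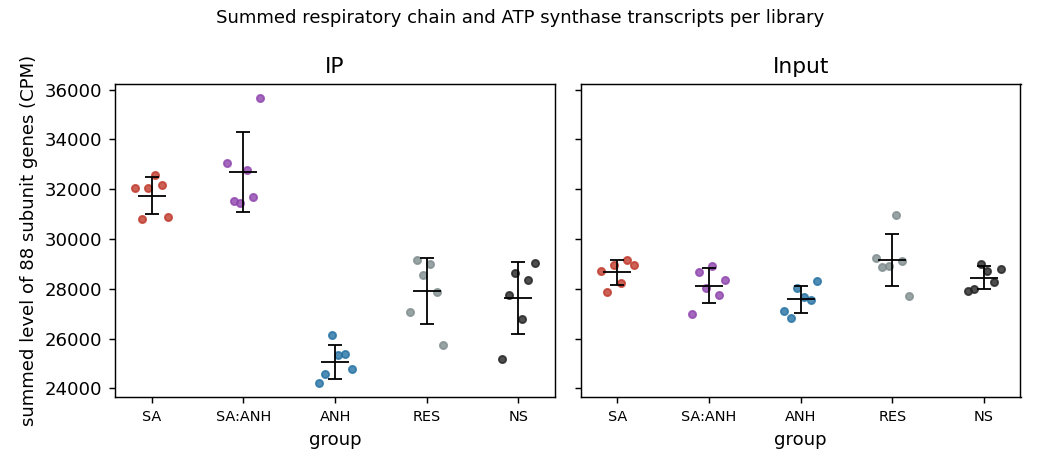
Summed CPM of the 88 subunit genes in each library (points) with the group mean and SD (black, n = 6), for IP on the left and Input on the right; the vertical axis does not start at 0. All SA and SA:ANH IP libraries are at or above 30786 CPM and all NS IP libraries at or below 29042 CPM, and the Input groups overlap.

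In SA against NS IP libraries, subunits of all 5 complexes were higher, and none was lower. Of 81 members tested, 64 were higher, 0 lower and 17 did not pass, where 9.39% of all genes tested were higher and 7.2% lower. DESeq2 also gave 64 higher and 0 lower, and 1 member was lower at an unadjusted p under 0.05 (Ndufs1). The median log2 fold change was 0.28 over the members and 0.02 over all genes, and 43 members had no overlap between the 12 libraries (5.15% of all genes on the higher side and 3.43% on the lower). The 4 members dropped by the filter on low counts, Cox4i2, Cox6b2, Cox8b and Ndufa4l2, were nearly absent from IP.

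The small accessory subunits of complex I changed most, with 27 of 29 higher. Ndufb1, a membrane-arm subunit, was at 117 to 161 CPM in SA IP (median 132.5), against 76.3 to 128 CPM in NS IP (median 92.0). The ranges overlapped through the highest NS library (log2 fold change 0.49 ± 0.10, adjusted p = 0.000456). Ndufa6, which binds the acyl carrier protein, was at 191 to 203 CPM in SA (median 194), against 121 to 161 CPM in NS (median 140). Its groups did not overlap (0.49 ± 0.06, adjusted p = 3.71e-07). Ndufa2, a matrix-arm subunit, had the same fold change (0.49). Of 7 core subunits 5 were higher, among them Ndufv1, which holds the NADH site, at 500 to 556 CPM in SA (median 542), against 457 to 501 CPM in NS (median 484). Only the edges of those ranges met (0.15 ± 0.04, adjusted p = 0.00368). Ndufs1, the largest iron-sulphur subunit, was at 208 to 236 CPM in SA (median 226), against 233 to 254 CPM in NS (median 243), and did not pass (-0.13, adjusted p = 0.115). In a fit of the compared libraries only it passed as lower (-0.14).

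In complex IV, 11 of 12 general subunits were higher, including Cox7c, a small membrane subunit (0.44, adjusted p = 0.000866), Cox6c, another (0.32), and Cox4i1, a regulatory subunit (0.28), while Cox5a did not pass (0.05). In complex III, 7 of 8 were higher and Uqcrc1 did not pass (0.03). In complex II only the iron-sulphur subunit Sdhb passed (0.22, adjusted p = 0.000105), and Sdha was at 638 to 669 CPM in SA (median 653), against 649 to 709 CPM in NS (median 689), ranges that overlapped. In ATP synthase 13 of 17 were higher, led by Atp5g2 (0.47) and Atp5md, a small subunit that holds dimers (0.47, adjusted p = 0.000348). The catalytic pair did not pass. Atp5b was at 2445 to 2582 CPM in SA (median 2542), against 2390 to 2640 CPM in NS (median 2554), and Atp5a1 was at 1455 to 1576 CPM in SA (median 1531), against 1462 to 1556 CPM in NS (median 1501). The SA range of Atp5b lay inside that of NS.

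In SA:ANH against NS IP libraries 66 members rose and 4 fell. Of 81 members tested, 11 did not pass, where 11.3% of all genes tested were higher and 8.45% lower. The median was 0.37 over the members and 0.01 over all genes, and 51 members on the higher side and 3 on the lower had no overlap (6.71% and 3.95% of all genes). All 12 general complex IV subunits passed as higher, as did 27 of 29 accessory subunits of complex I.

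Cox7c had the largest rise. It was at 233 to 379 CPM in SA:ANH IP (median 260), against 154 to 228 CPM in NS IP (median 182), without overlap (0.59 ± 0.09, adjusted p = 9.7e-06). Atp5md was at 376 to 628 CPM in SA:ANH (median 444), against 261 to 407 CPM in NS (median 300), where the highest NS library reached into the SA:ANH range (0.58 ± 0.09). Ndufb4, an accessory subunit, followed (0.57), then Atp5l, subunit g of ATP synthase (0.56), Ndufb1 (0.56) and Atp5e, the epsilon subunit (0.55). SA:ANH IP replicate 6 was the highest of its group for Ndufb1, Cox7c, Atp5md and the sum of all members, and without it 57 members were higher and 4 lower. Cox6c was at 777 to 1008 CPM in SA:ANH (median 814), against 538 to 695 CPM in NS (median 613), and the groups did not overlap (0.47 ± 0.06, adjusted p = 7.03e-08).

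The 4 falls were those of Ndufs1, Sdha, Uqcrc1 and Atp5b, of complexes I, II, III and V. Ndufs1 was at 187 to 216 CPM in SA:ANH (median 194.5), against 233 to 254 CPM in NS (median 243), with no overlap (-0.29 ± 0.05, adjusted p = 0.000113). Sdha was at 540 to 624 CPM in SA:ANH (median 587), against 649 to 709 CPM in NS (median 689), also without overlap (-0.22 ± 0.03, adjusted p = 2.83e-06). Uqcrc1 was at 663 to 726 CPM in SA:ANH (median 691), against 735 to 839 CPM in NS (median 778), again apart (-0.17 ± 0.04, adjusted p = 0.00168). Atp5b was at 2220 to 2454 CPM in SA:ANH (median 2372), against 2390 to 2640 CPM in NS (median 2554), and its ranges overlapped (log2 fold change -0.10). Atp5a1 (-0.01) and Ndufv1 (-0.01) did not pass. Uqcrfs1 (0.11, adjusted p = 0.0443) and Atp5g3 (0.13, adjusted p = 0.0234) passed as higher but lost the call with no filter on low counts (0.10 and 0.12). SA and SA:ANH were compared with the same NS libraries.

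**Figure D2:**
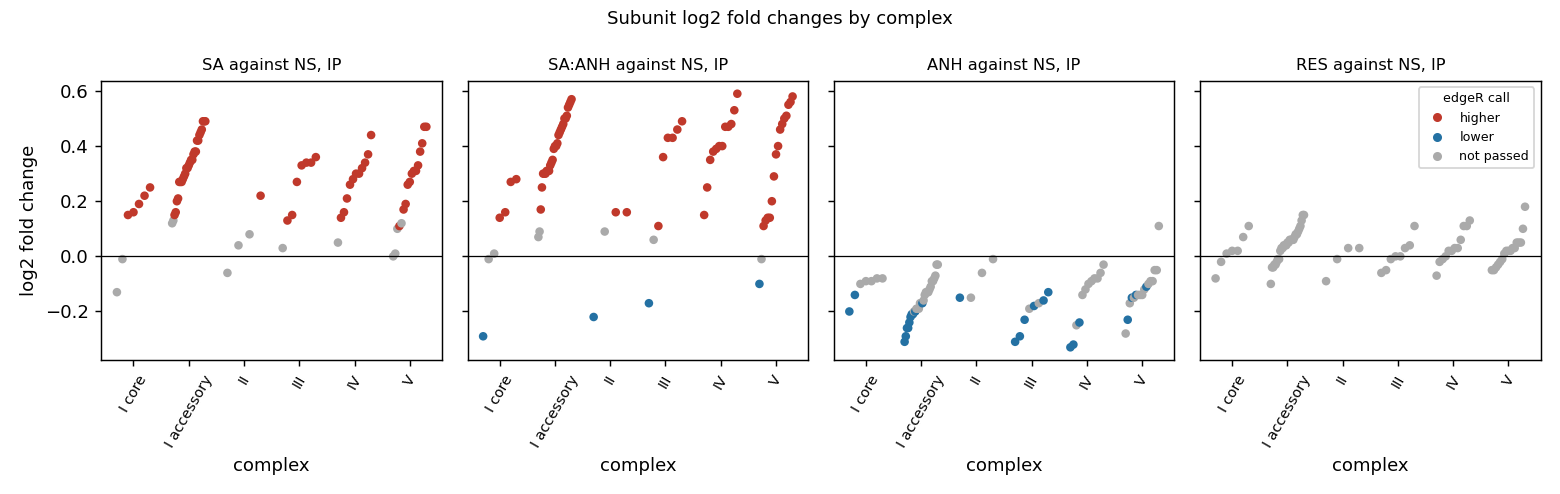
Log2 fold change against NS in IP (vertical axis) for each general subunit tested, by complex (horizontal axis), with isoforms and copies left out; red points passed as higher, blue as lower and grey did not pass edgeR's test. Points are mostly red in SA and SA:ANH, blue or grey in ANH and all grey in RES.

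**Figure D3:**
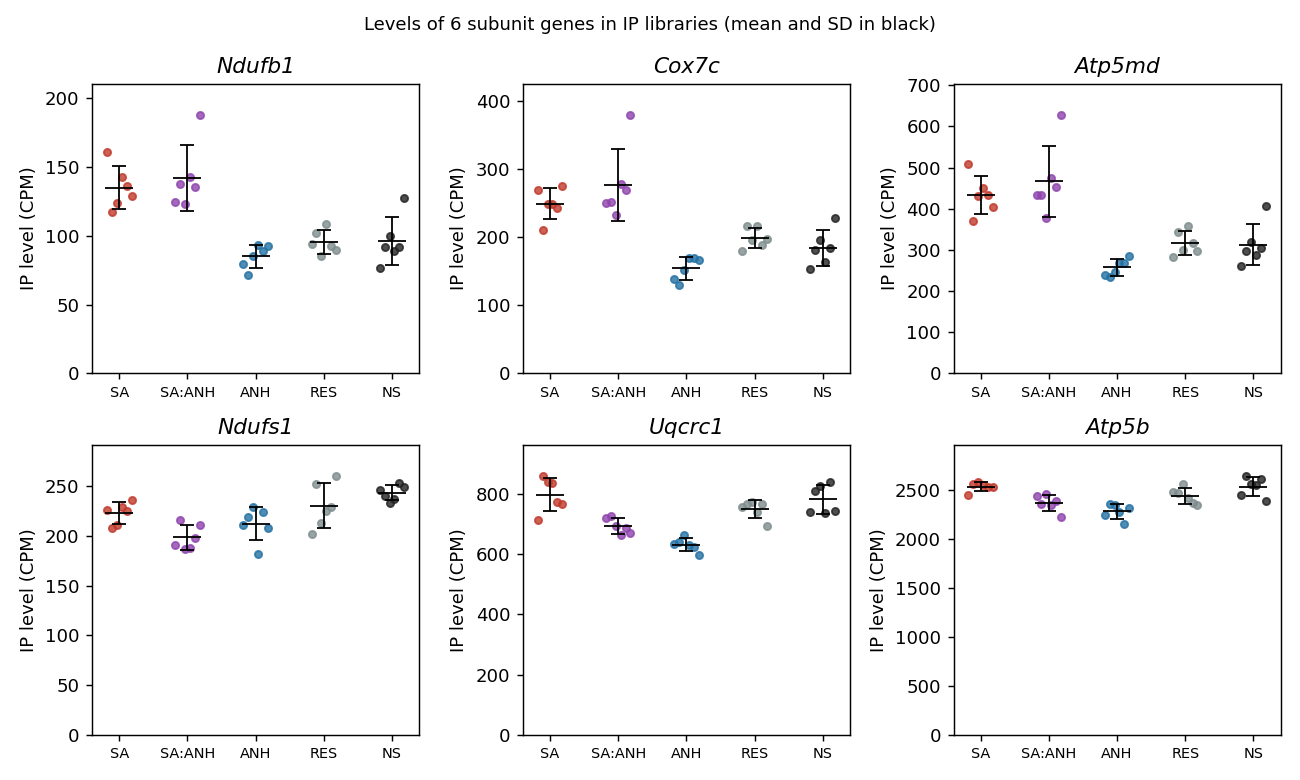
IP level in CPM (vertical axis from 0) of 3 small subunits (top) and 3 large ones (bottom) in each library by group, with mean and SD in black (n = 6). Means of the small subunits are higher in SA and SA:ANH than in NS, with ranges that overlap NS except for Cox7c in SA:ANH. Ndufs1 and Uqcrc1 in SA:ANH lie wholly below NS.

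Members with short coding sequences had the larger rises in SA and SA:ANH. The 77 tested members other than isoforms and copies had a median gene length of 1046 bases and a median coding length of 417 bases, against 3458 and 1410 bases for protein-coding genes tested in IP. Coding lengths are from GENCODE M21 and gene lengths from the deposited table. Of 56 members with a coding sequence of up to 600 bases, 50 were higher in SA and 55 in SA:ANH against NS (median log2 fold changes 0.32 and 0.40). Of 20 with a longer one, 13 were higher in SA (median 0.15), and 10 were higher and 4 lower in SA:ANH (median 0.10). Spearman's correlation of fold change with coding length over 76 members was -0.59 in SA and -0.74 in SA:ANH against NS, 0.41 in ANH and 0.03 in RES. With the deposited gene length, over 77 members, it was -0.34 in SA, -0.35 in SA:ANH, 0.14 in ANH and -0.16 in RES. In Input against NS the correlation with coding length was -0.27 in SA, 0.53 in SA:ANH, 0.64 in ANH and 0.51 in RES. These are descriptions across genes that share the same libraries.

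Other short genes moved in the same direction. Of 1687 other protein-coding genes with a coding sequence of up to 600 bases, 29.8% were higher in SA against NS (median 0.14) and 38.5% in SA:ANH against NS (median 0.20). Among 12045 with a longer one, 6.97% were higher in SA (median 0.00) and 8.05% in SA:ANH (median -0.02). Without cytosolic and mitochondrial ribosomal protein genes, 26.0% and 35.1% of the short genes were higher in SA and SA:ANH. An offset for coding length in each library, chosen after this pattern was seen, left 40 members higher and 1 lower in SA (median 0.12), and 39 higher and 5 lower in SA:ANH (median 0.13). With it Cox5a passed as lower in SA (-0.13) and in SA:ANH (-0.09), and Atp5g3 as lower in SA:ANH (-0.11). Ndufb1 had no coding length in the annotation used, so it is in no fit with the coding length offset and in no count by coding length. An offset for gene length left 48 higher and 0 lower in SA, and 45 higher and 7 lower in SA:ANH. RNA integrity is not recorded in the labels used here, and its part in the dependence on length was not tested.

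**Figure D4:**
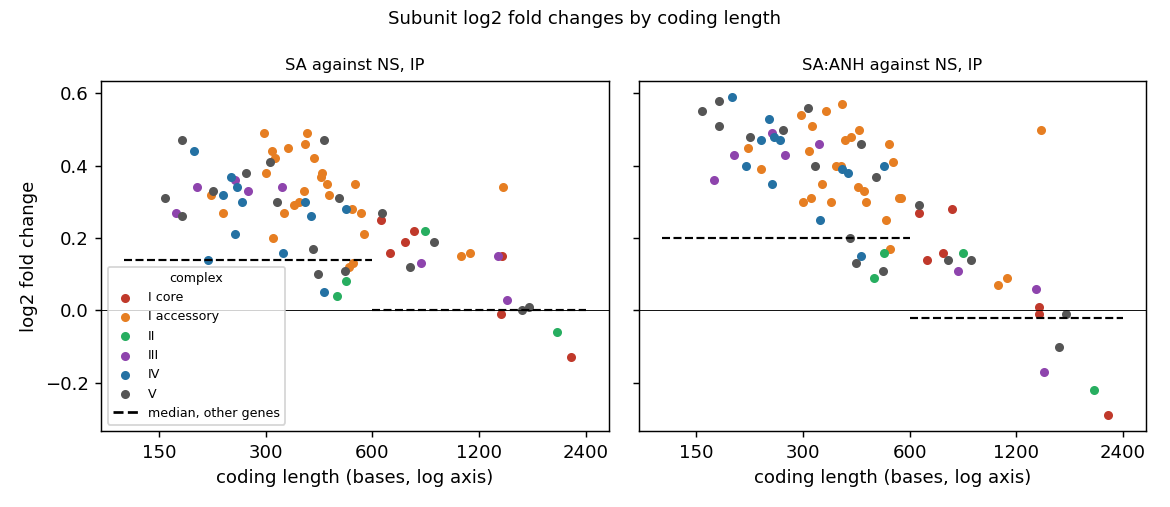
Log2 fold change against NS in IP (vertical axis) of general subunits by coding length in bases (horizontal log axis), coloured by complex; dashed lines are the medians of other protein-coding genes of up to 600 bases and over 600 bases. Fold changes are largest for short subunits and reach -0.29 for Ndufs1 in SA:ANH, and most short subunits lie above the median of other short genes. Ndufb1, without a coding length, is not shown.

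Lower subunit transcripts marked ANH against NS IP libraries. Of 81 members 26 were lower, 0 higher and 55 did not pass, where 4.37% of all genes tested were lower and 3.02% higher. DESeq2 also gave 0 higher, and 0 were higher at an unadjusted p under 0.05. The median was -0.14 over the members and 0.00 over all genes. Complex III had most of its members among the falls, 6 of 8, against 10 of 29 accessory and 2 of 7 core subunits of complex I, 1 of 4 in complex II, 3 of 12 in complex IV and 4 of 17 in ATP synthase.

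Ndufa4, now placed in complex IV, was at 384 to 425 CPM in ANH IP (median 409), against 431 to 572 CPM in NS IP (median 525), without overlap (-0.33 ± 0.06, adjusted p = 0.00026). Cox6c was at 458 to 538 CPM in ANH (median 481), against 538 to 695 CPM in NS (median 613), where the ranges met at their edge (-0.32 ± 0.06, adjusted p = 0.000213). Uqcrc1 was at 599 to 665 CPM in ANH (median 632), against 735 to 839 CPM in NS (median 778), with no overlap (-0.31 ± 0.04, adjusted p = 2.36e-06). Both short and long members fell, with 18 of 56 of up to 600 coding bases and 8 of 20 longer ones lower. Atp5b (-0.15), Ndufs1 (-0.20), Ndufv1 (-0.14) and Atp5a1 (-0.11) were among the falls, and Sdha did not pass (-0.01). The groups did not overlap for 6 members, all on the lower side (2.09% of all genes lower and 1.94% higher). The count of falls was 14 when counts were scaled by library totals alone, 41 with the gene length offset, 31 with DESeq2 and 39 without NS IP replicate 1, the lowest NS library for the sum of members, and none of these gave a rise. All 10 oligodendrocyte markers were higher in ANH against NS IP libraries (median log2 fold change 1.61), and 8 of 10 layer 5 extratelencephalic markers lower (median -0.42).

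No member passed between RES and NS IP libraries. Of 81 members 0 passed in either direction with edgeR and with DESeq2, where 2.25% of all genes tested were higher and 2.11% lower. At an unadjusted p under 0.05, 10 members were higher and 2 lower. Fold changes of general subunits ran between -0.10 and 0.18 on the log2 scale. Ndufs1 was at 202 to 260 CPM in RES (median 227.5), against 233 to 254 CPM in NS (median 243), and the NS range lay inside that of RES. Cox7c was at 180 to 216 CPM in RES (median 196.5), inside the NS range of 154 to 228 CPM. All 10 oligodendrocyte markers were higher in RES against NS IP libraries (median 2.49), and their part in the results on subunits was not tested.

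Against RES in IP, calls in SA and most calls in SA:ANH were rises, and calls in ANH were falls. SA had 62 of 81 members higher and 0 lower, where 6.83% of all genes were higher and 4.8% lower, with DESeq2 giving 59 higher and 0 lower and no member lower at an unadjusted p under 0.05. SA:ANH had 62 higher and 2 lower (8.21% and 5.61% of all genes), the falls being Ndufs1 (-0.22, adjusted p = 0.00537) and Sdha (-0.13, adjusted p = 0.00372). ANH had 48 lower and 0 higher (5.43% and 3.78% of all genes), with 0 higher by DESeq2 and 2 higher at an unadjusted p under 0.05. The largest rises were Ndufb1 (0.50), Ndufa3 (0.48) and Atp5md (0.45) in SA, and Ndufb1 (0.57), Atp5md (0.56) and Atp5l (0.55) in SA:ANH. The largest falls in ANH were Cox7c (-0.37), Ndufb3 (-0.37) and Ndufc2 (-0.37), small subunits of complexes IV and I. These 3 comparisons share the RES libraries. Spearman's correlation with coding length was -0.72 in SA and -0.84 in SA:ANH against RES, over 76 members. With the coding length offset the rises against RES were 38 in SA and 40 in SA:ANH, and the falls in ANH were 32.

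Few members passed in bulk cortex, and cell type markers differed there too. Of 85 members tested in Input, 0 were higher and 2 lower in SA against NS, where 1.23% of all genes were higher and 1.6% lower. SA:ANH had 0 higher and 5 lower (2.54% and 3.1% of all genes), ANH had 0 higher and 6 lower (1.57% and 1.05%), and RES had 3 higher and 2 lower (1.96% and 1.27%). At an unadjusted p under 0.05, 5 members were higher and 6 lower in SA, 6 higher and 14 lower in SA:ANH, and 2 higher and 28 lower in ANH, where the median log2 fold change was -0.08. DESeq2 gave 1 higher in SA, 1 in SA:ANH and 0 in ANH. Among general subunits SA had no call. SA:ANH had falls of Ndufc2, a complex I subunit (-0.19, adjusted p = 0.022), and Cox5a (-0.13, adjusted p = 0.0111), and the copy Cox5b-ps was lower too (-0.97). ANH had falls of Ndufc2 (-0.19), Ndufa4 (-0.16), Cox5a (-0.12) and Ndufs7, a core iron-sulphur subunit (-0.11). The rises in RES included Uqcrc1 (0.12, adjusted p = 0.0139) and Atp5a1 (0.08). The calls in Input changed with the method. In SA:ANH there were 1 higher and 7 lower with DESeq2, 1 higher and 8 lower with the replicate block, and 16 higher and 5 lower with the gene length offset. In ANH 10 were lower with DESeq2, 3 with no filter on low counts and 2 with the coding length offset.

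The summed oligodendrocyte markers in Input were 3354 to 3527 CPM in SA, 3004 to 3203 in SA:ANH, 4726 to 4890 in ANH and 4059 to 4222 in RES, against 2752 to 2925 CPM in NS. Red blood cell transcripts summed to 1464 to 1621 CPM in SA, 1447 to 1614 in SA:ANH, 1497 to 1582 in ANH and 1183 to 1401 in RES, against 867 to 940.3 CPM in NS. No subtype overlapped NS in either sum, no gene of these lists was at 0, and their part in the Input results was not tested.

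Against RES in Input, SA had 5 members lower and 0 higher (0.66% and 0.44% of all genes), SA:ANH had 0 in either direction (0.374% lower and 0.319% higher) and ANH had 13 lower and 0 higher (1.73% and 2.48%). At an unadjusted p under 0.05, 4 members were higher and 10 lower in SA, 0 higher and 22 lower in SA:ANH, and 0 higher and 40 lower in ANH, and DESeq2 gave 0 higher in each of the 3 and 0 lower in SA:ANH. The largest falls in SA were those of Ndufs1 (-0.22), Sdha (-0.13) and Atp5b (-0.12). Their number was 3 with RLE factors, with library totals, with no filter or with the compared libraries alone. The largest falls in ANH were those of Ndufa11 (-0.21), Ndufb9 (-0.16) and Ndufs7 (-0.15), and their number was 8 with no filter and 21 with DESeq2.

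The 2 members that differed from NS in all 4 Input comparisons were muscle forms of complex IV, and in each the NS libraries were the high ones. Cox8b, expressed in muscle and brown fat, was at 0.134 to 0.740 CPM in SA Input (median 0.403), 0.0492 to 0.476 in SA:ANH (0.156), 0 to 0.349 in ANH (0.162) and 0.0899 to 0.304 in RES (0.200), against 7.999 to 9.98 CPM in NS Input (9.11). Cox7a1 was at 0.771 to 1.67 CPM in SA Input (median 1.38), 0.735 to 2.11 in SA:ANH (1.41), 0.868 to 1.64 in ANH (1.51) and 0.910 to 1.89 in RES (1.499), against 4.55 to 6.57 CPM in NS Input (5.66). No subtype overlapped NS for either gene. Log2 fold changes of Cox8b were -4.27 in SA, -5.30 in SA:ANH, -5.76 in ANH and -5.44 in RES, and those of Cox7a1 lay between -2.05 and -1.94. DESeq2's own filter gave neither an adjusted p in SA, with like fold changes (-4.28 and -2.05).

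Transcripts of fat tissue moved with these isoforms. Of 15 adipose tissue genes, a list drawn up after Cox8b was seen, 12 were tested in Input and 9 were lower in each subtype against NS, at medians of -7.52 in SA, -6.97 in SA:ANH, -6.1 in ANH and -6.8 in RES. Of all genes tested in Input, 1.6% were lower in SA, 3.1% in SA:ANH, 1.05% in ANH and 1.27% in RES. Most of the 9, such as Pck1 with 0 counts in every subtype Input library, could pass the filter on low counts only through NS. Their direction was therefore fixed in advance, and the count is only a description. Ucp1, the uncoupling protein of brown fat, had 0 counts in SA and SA:ANH Input, up to 5 in a library of ANH and up to 1 in RES, against 290 to 458 counts in each NS Input library. Fabp4, a fatty acid binding protein of fat cells, had at most 4 counts in any subtype Input library, against 577 to 699 in NS. In the NS IP libraries Cox8b had 0 to 6 counts and Ucp1 0 to 23 counts. The part of these transcripts in the Cox8b and Cox7a1 differences was not tested. Because the NS Input libraries stand apart in these genes, the comparisons with RES in Input, where Cox8b (1.17 in SA, 0.14 in SA:ANH, -0.32 in ANH) and Cox7a1 (-0.09, 0.01 and -0.01) did not pass, give their values without them.

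**Figure D5:**
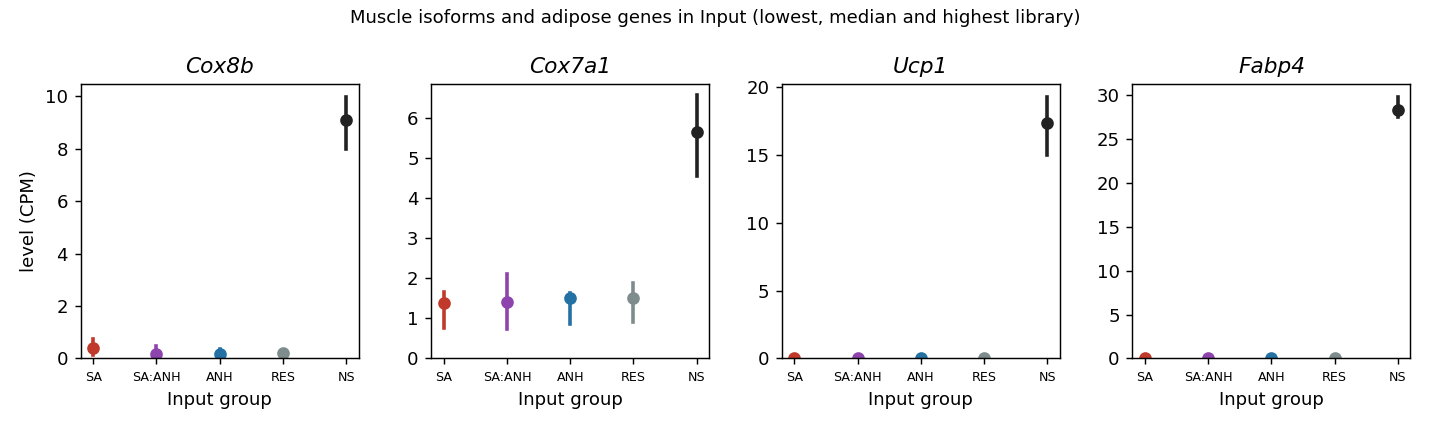
Input level in CPM (vertical axes from 0) of the muscle isoforms Cox8b and Cox7a1 and of the fat genes Ucp1 and Fabp4, as the median (point) and the range of 6 libraries (line) per group. In each panel every NS library is above every library of the 4 subtypes.

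The difference between the fractions was tested as IP minus Input in 1 model of all 60 libraries. In SA, 42 of 85 members had a higher difference from NS in IP than in Input and 0 a lower one, where 4.49% of all genes were higher and 4.55% lower. No member was lower at an unadjusted p under 0.05, and DESeq2 also gave 0 lower. Among general subunits 40 of 77 passed, led by Ndufb1 (0.45 ± 0.14, adjusted p = 0.0364), Cox7c (0.44) and Ndufb4 (0.41). In SA:ANH, 59 were higher and 4 lower (7.14% and 8.06% of all genes). The rises were led by Ndufb1 (0.71 ± 0.14, adjusted p = 0.00024), Atp5md (0.68) and Atp5e (0.65), and the falls were Ndufs1 (-0.31), Uqcrc1 (-0.29), Sdha (-0.28) and Atp5b (-0.17). With the coding length offset the rises numbered 18 in SA and 40 in SA:ANH, and with the gene length offset 22 and 25.

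In ANH, 1 member had a higher difference in IP than in Input and 5 a lower one (1.77% and 1.85% of all genes). The falls were Uqcrc1 (-0.31, adjusted p = 1.56e-05), Cox6c (-0.26), Atp5b (-0.19), Ndufv1 (-0.15) and Atp5a1 (-0.14), so for most of the 26 falls in ANH IP a difference from Input was not shown. With library totals 2 of the falls passed, and with the gene length offset 30. In RES, 0 were higher and 2 lower (1.41% and 1.28% of all genes), Uqcrc1 (-0.18) and Atp5b (-0.11), and 2 members were higher at an unadjusted p under 0.05 and 1 by DESeq2. Both falls were lost with RLE factors, library totals or no filter. Cox7a1 passed as higher in SA (2.67), SA:ANH (2.40) and ANH (1.80), a difference that contains the high NS Input level.

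Among genes that build or feed the chain, assembly factors had more rises than falls in SA and SA:ANH. Tricarboxylic acid cycle and glycolytic genes went both ways there. Of all genes tested in IP against NS, 9.39% were higher and 7.2% lower in SA, and 11.3% and 8.45% in SA:ANH. In ANH these shares were 3.02% and 4.37%, and in RES 2.25% and 2.11%. Of 46 assembly factors tested in IP, 12 were higher and 2 lower in SA and 15 higher and 3 lower in SA:ANH against NS, and 5 were lower in ANH. Cox17, which carries copper to complex IV, rose in SA (0.40) and SA:ANH (0.57), as did Uqcc2, an assembly factor of complex III (0.32 and 0.49). Cox14, a complex IV assembly factor, fell in ANH (-0.33). Of 12 mitochondrial carriers, porins and the ATP synthase inhibitor, 5 were higher and 1 lower in SA, 3 higher and 2 lower in SA:ANH, 1 higher and 4 lower in ANH and 2 lower in RES. Of these, Atpif1, the inhibitor of ATP synthase, rose in SA (0.45) and SA:ANH (0.61). Of 11 tested respiratory chain genes outside the naming rule, 3 were higher in SA, 4 higher and 1 lower in SA:ANH and 3 lower in ANH. Of 20 genes of the tricarboxylic acid cycle and pyruvate entry, 3 were higher and 3 lower in SA, 3 higher and 4 lower in SA:ANH and 4 lower in ANH. Mpc1, part of the mitochondrial pyruvate carrier, rose in SA (0.19) and SA:ANH (0.43), and Ogdh, of the oxoglutarate dehydrogenase complex, fell in SA (-0.26), SA:ANH (-0.31) and ANH (-0.22). Of 18 glycolytic genes 6 were higher and 4 lower in SA, and 5 higher and 6 lower in SA:ANH. Among 15 regulators of mitochondrial biogenesis 3 fell in SA:ANH, among them Ppargc1a, a coactivator of respiratory genes (-0.54, adjusted p = 0.000102), which also fell in ANH (-0.36).

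Ribosomal protein genes were mostly higher in SA and SA:ANH, and in RES and ANH their counts differed from those of the subunits. Of 77 cytosolic ribosomal protein genes tested in IP, 73 were higher in SA, 76 in SA:ANH and 37 in RES against NS, and 1 was lower in ANH. Of 78 mitochondrial ribosomal protein genes 52 were higher in SA, 46 in SA:ANH, and 9 were lower in ANH. Of the 13 protein genes of mitochondrial DNA, 11 were higher in SA (median 1.07) and 9 in SA:ANH (median 0.52), at the low IP levels given by their fold change against Input. Red blood cell transcripts, present in IP at 14.4 to 51.8 summed CPM in SA, SA:ANH and NS, were higher for 4 of 5 genes in SA and 5 of 5 in SA:ANH, and their part in these results was not tested.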

How the data were processed

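RNA-seq of 30 IP and 30 Input libraries was analysed from the authors' deposited table of expected counts per gene, in which 88.4% of values are whole. Per the submitters' processing notes, Trimmomatic 0.32, TopHat2 2.0.13 and Bowtie2 2.2.3 were used with the mm10 build; the sources used here give no counting step. Per the labels, libraries were made with SMART-Seq v4 and sequenced as paired reads of 100 bases. Groups were taken from the labels, and all value columns were matched to a sample.

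Values were rounded to whole numbers and tested with edgeR 4.0.16 in R 4.3.3 (quasi-likelihood test, TMM factors, filterByExpr with a minimum count of 10, Benjamini-Hochberg adjustment over all genes tested). IP (16670 genes), Input (18170) and both fractions together (18937) were fitted separately, each with all its groups. Common biological coefficients of variation were 23.7% in IP, 18.6% in Input and 22.2% in both. In simulated data for SA against NS in IP, 2% of genes changed by 0.25, 16% of genes changed by 0.5 and 98% of genes changed by 1.0 on the log2 scale were recovered. For SA against NS in Input and for IP minus Input, 0% of genes changed by 0.25 were recovered. Members passed at smaller changes, such as Atp5a1 (0.08) and Uqcrc1 (0.12) in RES against NS in Input. Atp5b passed at -0.17 in SA:ANH for IP minus Input. These percentages therefore give no limit for the members. A member that did not pass may still differ, and by how much was not tested. Alternatives were RLE factors, library totals, DESeq2 1.42.0, no filter, only the libraries compared and a replicate block. Offsets for gene and coding length over 25 bins, and fits without SA:ANH IP replicate 6 or NS IP replicate 1, were chosen after seeing the data. Summaries used Python 3.11.15 and pandas 2.3.3. Named genes were the 3 largest rises and 3 largest falls per comparison among called members of at least 10 CPM, genes named for their role, and further members chosen after their values were seen. The members and gene lists were chosen with earlier results of these data known. Values of 1 member are not reported here by name.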

Additional observations from a re-analysis of the deposited data

Results flagged for a closer look

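In 9 of 210 groups of 6 libraries tested, 1 library stood far from the other 5, where chance gives about 1 in 20 groups, or about 10. The tests share libraries, and the sums contain the single genes, so the tests are not independent. Whether any 1 library is set apart by chance cannot be read from these numbers. SA:ANH IP replicate 6 was the highest for the summed accessory subunits of complex I (8405.8 CPM, next 7482.1), the summed general subunits of complex IV (9185.8 CPM, next 8148.8), Ndufb1 (188.0 CPM, next 142.5), Cox7c (379.4 CPM, next 278.5) and Cox6c (1008 CPM, next 859.6). NS IP replicate 1 was the lowest for the summed subunits of ATP synthase (8449.0 CPM, next 9019.1). Cox7a1 was high in SA IP replicate 1 (1.882 CPM, next 1.021) and low in ANH Input replicate 2 (0.8676 CPM, next 1.404). Ndufs1 was high in SA:ANH Input replicate 5 (227.5 CPM, next 199.1).

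The difference from NS itself differed between IP and Input, by the interaction term of edgeR's quasi-likelihood test, for 42 of 85 members in SA, 63 in SA:ANH, 6 in ANH and 2 in RES. Of all genes tested, 4.49% were higher and 4.55% lower in SA, and 7.14% and 8.06% in SA:ANH. In ANH these shares were 1.77% and 1.85%, and in RES 1.41% and 1.28%. The count in RES, 2.35% of members, was therefore near that of all genes.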

How the results depend on the processing

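Of the counts of called members under alternatives, 128 stayed within 1.5 times their value and 36 moved further. With the coding length offset the counts were 41 in SA and 44 in SA:ANH against NS in IP, 2 in RES against NS in IP, 2 in ANH against NS in Input, 38 in SA and 41 in SA:ANH against RES in IP, and for IP minus Input 20 in SA and 4 in RES. With the gene length offset they were 41 in ANH and 1 in RES against NS in IP, 21 in SA:ANH against NS in Input, 1 in SA, 3 in SA:ANH and 4 in ANH against RES in Input, and for IP minus Input 23 in SA, 33 in SA:ANH, 30 in ANH and 4 in RES. With library totals they were 14 in ANH against NS in IP, 3 in SA against RES in Input, and 3 in ANH and 0 in RES for IP minus Input. With DESeq2 they were 1 in SA, 8 in SA:ANH and 10 in ANH against NS in Input and 21 in ANH against RES in Input. With no filter they were 3 in ANH against NS, 3 in SA and 8 in ANH against RES in Input, and 0 in RES for IP minus Input. With RLE factors they were 3 in SA against RES in Input and 0 in RES for IP minus Input, and with only the compared libraries 3 and 1. Without NS IP replicate 1 the count in RES for IP minus Input was 1.

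Under the gene length offset the direction reversed for Atp5a1 (0.13), Cox4i1 (0.04) and Ndufb8 (0.13) in IP against Input, for Atp5g3 (-0.13), Sdhb (-0.02) and Uqcrfs1 (-0.04) in SA:ANH against NS in IP, for Ndufc2 (0.06) and Atp5g3 (0.09) in SA:ANH and Cox4i1 (0.10) in ANH against NS in Input, for Atp5g3 in SA (0.00) and SA:ANH (-0.05) and Sdhb in SA:ANH (-0.01) against RES in IP, and for Atp5g3 (-0.23) and Cox4i1 (-0.04) in SA:ANH for IP minus Input. Under the coding length offset it reversed for Atp5a1 (0.02) in IP against Input, Atp5g1 (-0.01) and Cox5a (-0.13) in SA, and Atp5g1 (-0.05), Atp5g3 (-0.11) and Cox5a (-0.09) in SA:ANH against NS in IP, Atp5g1 (-0.03) and Atp5g3 (-0.03) in SA:ANH and Cox5a (0.09) in ANH against RES in IP, Atp5g3 (-0.12) in SA and Atp5g1 (-0.15) and Atp5g3 (-0.12) in SA:ANH for IP minus Input. The cause was not tested.

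Libraries of the same replicate number were not treated as paired, because the labels give no shared source. Correlations of deviations over 0.1 were found in 11 of 60 pairs in IP and 12 of 60 in Input. Between IP and Input there were 10 of 30, and these values do not settle the pairing. The median correlation was 0.01 in IP, 0.04 in Input and 0.04 between IP and Input, and 10 of 30 IP libraries correlated best, among 6 numbers, with the Input of their own, a hint from the data and not the design. With the replicate block the counts against NS were 64 in SA, 69 in SA:ANH, 29 in ANH and 0 in RES in IP, and 9 in SA:ANH in Input, and for IP minus Input 53 higher in SA and 62 higher and 5 lower in SA:ANH. In IP 4 detected isoforms fell under the filter on low counts and were not tested.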
